A study of Homo sapiens with 21 samples.

Results

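The aminoacyl-tRNA synthetases are the enzymes that load amino acids onto their tRNAs. They were followed here in hTERT-HPNE, an immortalized nontransformed human pancreatic cell line, after oxidative stress and after DNA double-strand breaks. The members were found by gene symbol. The set held 36 genes, 20 for enzymes of the cytosol and 16 for enzymes of the mitochondrion, out of 23368 genes listed and 19694 that varied between libraries. All 36 were present once and varied, so none was lost to the filter on low values.

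RNA-seq covered 7 groups of 3 biological replicates, 21 libraries in all. Cells in fresh medium received 300 µM H2O2, the source of oxidative stress, or 400 ng/ml neocarzinostatin (NCS), a radiomimetic drug that breaks both strands of DNA, and RNA was isolated 4, 8 or 24 h later. The untreated group was collected at 0 h and served as the control of all 6 treated groups. No untreated cells were collected at the later times, so time in fresh medium and treatment cannot be told apart in comparisons with that group, whereas both treatments share the same time when they are compared with each other. Every group carried hTERT, the telomerase subunit that immortalizes the line, and grew in puromycin and EGF. One line was studied, so the replicates sample cultures and not donors.

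A synthetase recognizes an amino acid and its tRNAs (EPRS serves both glutamate and proline), joins them with energy from ATP, and hands the charged tRNA to the ribosome. The cytosol and the mitochondrion keep separate enzymes for most amino acids, the second kind being encoded in the nucleus and imported (symbols ending in 2). GARS and KARS make both forms for glycine and lysine from 1 gene each and were counted as cytosolic. 8 of the cytosolic genes encode enzymes of the multisynthetase complex, which is held together by the scaffold proteins AIMP1, AIMP2 and EEF1E1. Many cytosolic synthetase genes are targets of ATF4, the transcription factor of the integrated stress response, which also drives genes of amino acid synthesis and transport. ATF4 acts with C/EBP proteins at a short element called CARE, the C/EBP-ATF response element.

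The letters of that element are shown first because the cytosolic genes are described below by whether they are known ATF4 targets. RefSeq promoters of GRCh38.p14, from 250 bases before to 50 bases after a start site, were held for 30 of the 36 genes (all but DARS, LARS, VARS, YARS, AARS2 and VARS2). The element was searched as TGATGCAA on either strand, which reads TTGCATCA from the other strand. It was found in 6 of 16 cytosolic genes and in 0 of 14 mitochondrial genes, against 1.08% of all 27305 genes with such a promoter and 0.866% of all 35116 promoters. The 6 genes all belong to the 12 members listed as known ATF4 targets, 10 of which had a promoter. That list was chosen with earlier results of these data known, and the overlap was not tested. The matches are shown along the gene from 5′ to 3′ with 10 bases on each side and the element in capitals.
AARS, chr16:70289676-70289703, minus strand: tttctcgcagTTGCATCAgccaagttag
CARS, chr11:3057408-3057435, minus strand: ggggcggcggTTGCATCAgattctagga
IARS, chr9:92293693-92293720, minus strand: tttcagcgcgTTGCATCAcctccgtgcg
MARS, chr12:57488054-57488081, plus strand: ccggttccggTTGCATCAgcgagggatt
NARS, chr18:57621805-57621832, minus strand: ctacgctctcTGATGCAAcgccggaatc
TARS, chr5:33440957-33440984, plus strand: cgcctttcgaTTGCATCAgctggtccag

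In AARS the element began 187 bases before the start site. In the other 5 genes it lay close to the start, beginning 13 bases before it in IARS, 4 before it in MARS, 2 before it in CARS, 2 after it in TARS and 14 after it in NARS. With any base allowed at its 6th position (TGATGNAA, present in 4.46% of all genes), GARS and the mitochondrial gene YARS2 were added. The GARS match began 33 bases before the start and is shown in the same way.
GARS, chr7:30594835-30594862, plus strand: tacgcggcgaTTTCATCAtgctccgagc
The core of the antioxidant response element, TGACNNNGC on either strand, was present in 6 of the 30 genes (GARS, KARS, TARS, WARS, NARS2 and RARS2) and in 16.1% of all genes with a promoter. The palindromic E-box CACGTG was present in 4 of the 30 genes (IARS, CARS2, EARS2 and MARS2) and in 8.77% of all genes with a promoter. These are matches of letters in a window and show no binding.

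The deposited values are rLog values, a log2 scale that the authors made from counts with DESeq2 and that draws differences towards 0, most for genes with few reads. They give no depth, and they are not per gene length, so levels are compared for 1 gene between groups and not between genes. Values of the cytosolic genes lay at 10.32 to 14.13 and those of the mitochondrial genes at 6.57 to 11.84. Differences may thus be drawn towards 0 more strongly in the mitochondrial class, which was not tested. Shares and medians over all genes include low genes, as only those at 0 in every library were left out. Library medians lay between 7.14 and 7.19, and libraries of 1 group correlated at 0.9998 to 0.9999 across genes. Of the markers of the line, NES lay between 11.78 and 12.28 and VIM between 16.79 and 17.25. Of the epithelial keratins, KRT8 lay between 7.73 and 8.28 and KRT18 between 11.38 and 11.85, while the duct keratin KRT19 was nearly absent at 0.58 to 0.73. The acinar genes PRSS1 and CELA3A and the endocrine gene INS were at 0 in every library, and CPA1, AMY2A and GCG were at -1.89 or lower. The immune marker PTPRC did not exceed 0.98 and the endothelial marker PECAM1 did not exceed 2.42. HMOX1, a heme-degrading enzyme induced by oxidative stress, was higher by 3.44 at 4 h of H2O2 and by 0.88 at 4 h of NCS, and the p53 target MDM2 was higher by 0.79 and 1.55.

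A difference passed the test at an adjusted p under 0.05, from limma with Benjamini-Hochberg adjustment over all 19694 varying genes. A two-sided exact permutation test of 3 libraries against 3 cannot give a p under 0.1, so only the overlap of the libraries is given beside the fit. RNA was taken from whole cultures, where fewer cells of a kind and less RNA per cell cannot be told apart.

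**Figure D1:**
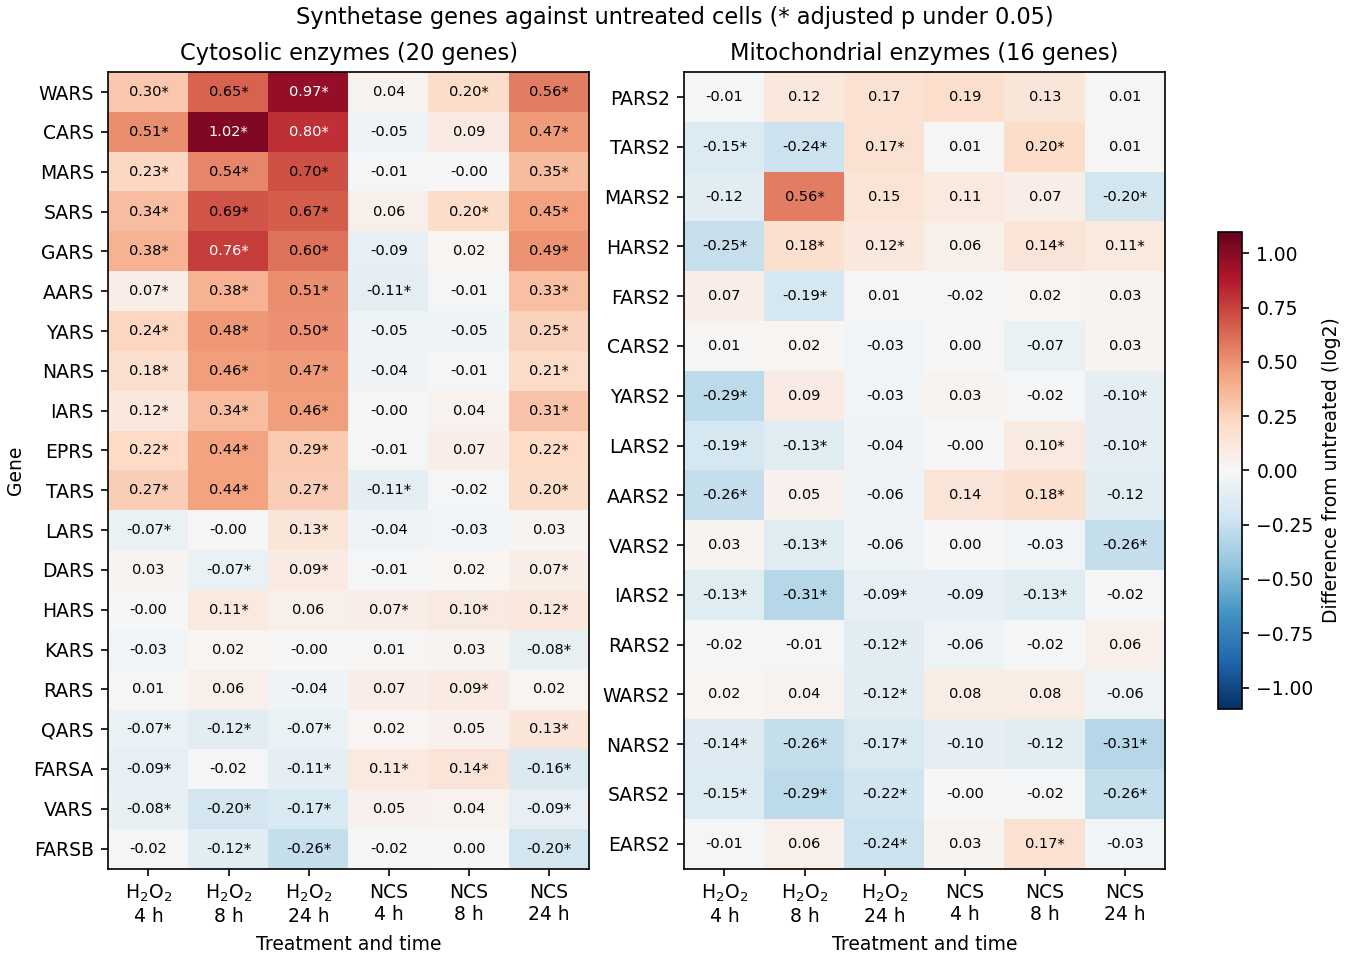
Log2 difference from untreated cells for each of 20 cytosolic genes (left) and 16 mitochondrial genes (right) in 6 treated groups, as color and number, with an asterisk where the adjusted p was under 0.05. The 11 cytosolic genes that rose at all 3 times of H2O2 are red there and again at 24 h of NCS, and the mitochondrial panel has no such block.

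After H2O2, 11 cytosolic synthetase genes rose at 4 h and were still above untreated cells at 8 and 24 h: AARS, CARS, EPRS, GARS, IARS, MARS, NARS, SARS, TARS, WARS and YARS. Of the mitochondrial genes, more fell than rose at each of these times. At 4 h, 11 of 20 cytosolic genes rose, 4 fell and 5 did not pass, where 26.2% of all genes rose and 19.7% fell. Of 16 mitochondrial genes, 0 rose and 8 fell. The median log2 difference was 0.09 over the cytosolic genes and -0.13 over the mitochondrial genes, beside 0.004 over all genes. Under quantile normalization the split of called members moved from 11 higher and 12 lower to 12 higher and 8 lower. NARS2, SARS2 and TARS2 were the mitochondrial genes no longer called. With that scaling 1 mitochondrial gene was higher and 5 lower, with a median of -0.09.

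At 8 h the cytosolic rise was larger, with 12 genes higher, 4 lower and a median of 0.36, where 18.8% of all genes rose and 18.6% fell. 4 of the 12 differed by more than 0.58, a 1.5-fold change, as did 1.38% of all genes. Among the mitochondrial genes, 2 were higher (MARS2 and HARS2), 7 were lower and the median was 0.01. At 24 h, 13 cytosolic genes were higher and 4 lower with a median of 0.28, and 2 mitochondrial genes were higher and 6 lower with a median of -0.05, where 20.2% of all genes rose and 19.9% fell. Quantile normalization moved the split of called members at 24 h from 15 higher and 10 lower to 16 higher and 5 lower. Of the mitochondrial genes, 2 were then higher and 3 lower, with a median of -0.01.

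After NCS the cytosolic genes were mostly called at 24 h. At 4 h, 4 members passed, HARS and FARSA higher and AARS and TARS lower, all cytosolic and by 0.07 to 0.11 in size, where 17.2% of all genes passed. Of those 4 calls, the AARS call alone was made under every alternative processing, the count fell to 1 without NCS 4 h replicate 1 or 2 and to 2 without NCS 4 h replicate 3 or untreated replicate 1, and the split moved from 2 higher and 2 lower to 4 and 2 under quantile normalization. At 8 h, 5 cytosolic and 5 mitochondrial genes were higher and 1 mitochondrial gene was lower, where 10.5% of all genes rose and 13.3% fell. These differences were at most 0.20 in size. The count of 11 fell to 7 without untreated replicate 1 or NCS 8 h replicate 2, and with library medians aligned 77.8% of the called members were higher against 90.9% without. Under quantile normalization 14 were higher, 9 of them cytosolic, and 1 was lower. At 24 h, 14 cytosolic genes were higher and 4 lower with a median of 0.21, and 1 mitochondrial gene was higher and 6 lower with a median of -0.04, where 19.6% of all genes rose and 18.4% fell. No member reached 0.58 at any time of NCS. Quantile normalization gave 16 higher and 6 lower at 24 h, in place of 15 and 10. Of the mitochondrial genes, 2 were then higher and 3 lower, with a median of 0.00.

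**Figure D2:**
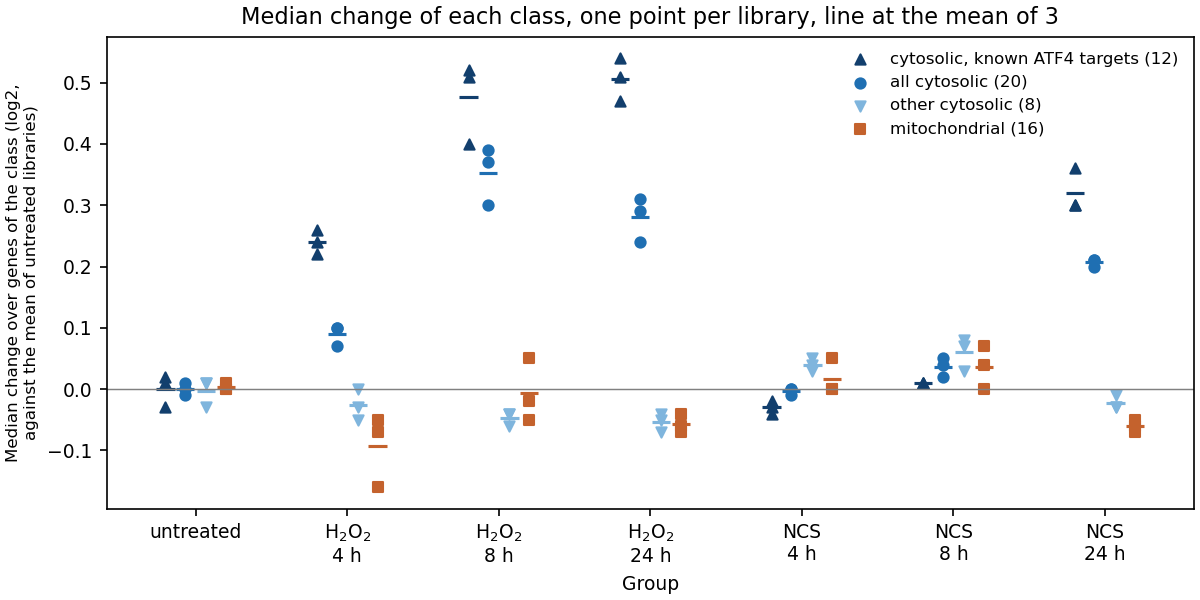
Median log2 change over the genes of a class in each of the 21 libraries, relative to the mean of the untreated libraries, with a line at the mean of the 3 libraries of a group. The cytosolic medians after H2O2 and after 24 h of NCS lie above all untreated libraries, as do those at 8 h of NCS, at only 0.02 to 0.05. The mitochondrial medians stay between -0.16 and 0.07.

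Taken library by library, the median change of the cytosolic genes minus that of the mitochondrial genes lay above every untreated library in 4 of the 6 treated groups. The difference was -0.02 to 0.01 in the untreated libraries, 0.16 to 0.23 at 4 h of H2O2, 0.34 to 0.39 at 8 h and 0.30 to 0.35 at 24 h. It was -0.04 to 0.00 at 4 h of NCS and -0.02 to 0.02 at 8 h, where it overlapped the untreated libraries, and 0.24 to 0.28 at 24 h. No test of it was made. Replicate 2 of 8 h of H2O2 had the smallest cytosolic median of its group, 0.30 against 0.37 and 0.39, and stood lowest of its group in CARS, WARS, GARS, SARS and MARS.

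CARS, which loads cysteine, showed the largest difference of all 36 genes. Its 3 untreated libraries were at 11.02, 10.96 and 11.02. They rose to 11.48, 11.49 and 11.55 at 4 h of H2O2, to 12.10, 11.82 and 12.14 at 8 h, and to 11.75, 11.80 and 11.85 at 24 h. No H2O2 library overlapped the untreated ones, and the peak was at 8 h. The log2 differences were 0.51, 1.02 and 0.80 (SE 0.05 each), with adjusted p of 4.14e-07, 1.56e-10 and 5.46e-10. The 8 h value is a 2.03-fold difference and the only one of any member over 1, a size that 0.32% of all genes reached, and it ranged from 0.96 to 1.12 with each library left out, 0.98 without H2O2 8 h replicate 1, 1.12 without replicate 2 and 0.96 without replicate 3. After NCS, CARS had values of 10.95, 10.93 and 10.98 at 4 h, 11.08, 11.09 and 11.09 at 8 h, then 11.44, 11.47 and 11.49 by 24 h. Only the 24 h rise of 0.47 passed (adjusted p = 9.96e-07).

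WARS, the tryptophan enzyme, was highest at 24 h of H2O2. It went from 11.51, 11.51 and 11.57 in untreated cells to 11.81, 11.83 and 11.85 at 4 h of H2O2, 12.24, 12.07 and 12.24 at 8 h, then 12.45, 12.49 and 12.55 by 24 h. Each H2O2 group stood above the one before it with no overlap, and the 24 h difference was 0.97 (SE 0.04, adjusted p = 3.44e-13). After NCS it was at 11.59, 11.54 and 11.60 at 4 h, 11.73, 11.74 and 11.72 at 8 h, then 12.05, 12.08 and 12.14 by 24 h. Here the 8 h difference was 0.20 (adjusted p = 6.72e-04). That of the last time point was 0.56 (adjusted p = 8.64e-10).

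GARS loads glycine in both compartments. It was at 13.30, 13.24 and 13.29 in untreated cells, 13.63, 13.68 and 13.67 at 4 h of H2O2, 14.13, 13.89 and 14.10 at 8 h, then 13.84, 13.88 and 13.92 by 24 h. The differences were 0.38, 0.76 and 0.60 (SE 0.04 each, adjusted p of 9.12e-07, 3.27e-10 and 1.22e-09), highest at 8 h as for CARS. The NCS libraries were at 13.19, 13.17 and 13.21 at 4 h, 13.35, 13.26 and 13.29 at 8 h, then 13.76, 13.77 and 13.77 by 24 h, so that only the last group stood above untreated cells (0.49, adjusted p = 2.47e-08).

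SARS, the serine enzyme, was at 12.46, 12.42 and 12.45 in untreated cells, 12.76, 12.76 and 12.83 at 4 h of H2O2, 13.22, 13.00 and 13.20 at 8 h, then 13.09, 13.15 and 13.13 by 24 h. The 8 and 24 h libraries overlapped, with differences from untreated cells of 0.34, 0.69 and 0.67 (adjusted p of 2.26e-06, 6.03e-10 and 1.35e-10). NCS gave 12.52, 12.49 and 12.51 at 4 h, 12.65, 12.65 and 12.65 at 8 h, then 12.85, 12.91 and 12.94 by 24 h, and the last 2 times passed at 0.20 and 0.45 (adjusted p of 0.00114 and 4.17e-08).

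MARS, which loads methionine, was at 12.39, 12.35 and 12.41 in untreated cells. It lay at 12.58, 12.62 and 12.64 at 4 h of H2O2, 12.93, 12.84 and 13.01 at 8 h, then 13.04, 13.09 and 13.12 by 24 h, rising with time as WARS did (0.23, 0.54 and 0.70, adjusted p of 2.11e-05, 1.11e-09 and 5.75e-12). In NCS it was at 12.42, 12.37 and 12.34 at 4 h, and the 8 h values were 12.36, 12.41 and 12.37, both overlapping untreated cells. By 24 h of NCS it had risen to 12.71, 12.73 and 12.76 (0.35, adjusted p = 1.15e-07).

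**Figure D3:**
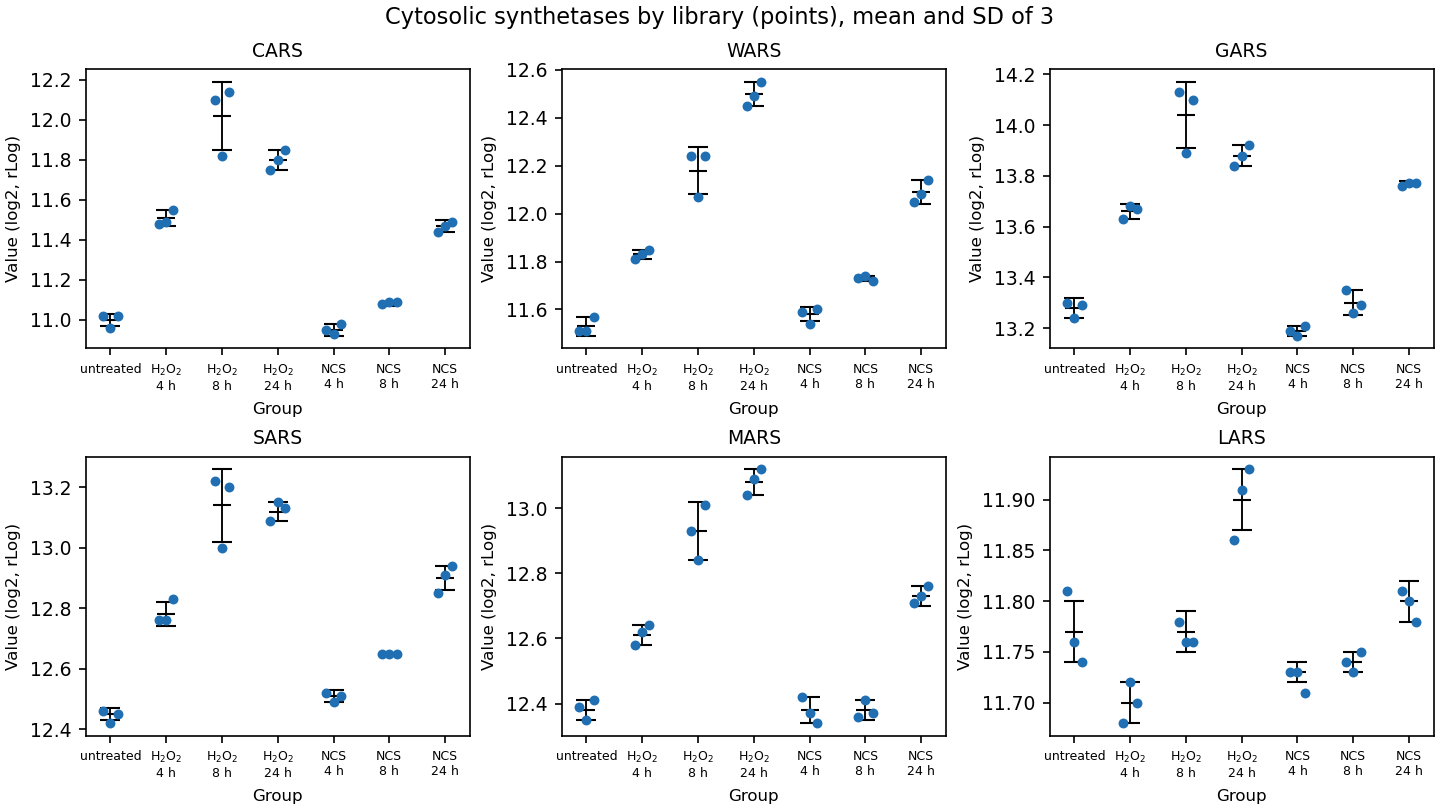
rLog values (log2) of CARS, WARS, GARS, SARS, MARS and LARS in each of 21 libraries (points) with the mean and SD of the 3 libraries of a group. CARS and GARS are highest at 8 h of H2O2, WARS and MARS at 24 h, and LARS differs from untreated cells by 0.13 at most.

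Of the 12 cytosolic members listed as known ATF4 targets, 11 rose at all 3 times of H2O2. At 4, 8 and 24 h taken singly, 26.2%, 18.8% and 20.2% of all genes rose. The share of all genes that rose at all 3 times was not counted and cannot exceed 18.8%. The remaining listed target, LARS for leucine, was lower at 4 h (-0.07), at -0.00 at 8 h and higher at 24 h (0.13). Its 4 h call was lost when untreated replicate 1 or H2O2 4 h replicate 1 was left out, and when only those groups were fitted. The medians over the 12 genes at those times were 0.23, 0.47 and 0.50. The list was chosen with earlier results of these data known, so the split of the cytosolic genes by it is a description and not a test. After NCS, 2 of the 12 fell at 4 h (AARS and TARS), where 9.72% of all genes fell. At 8 h 2 rose (SARS and WARS), where 10.5% of all genes rose. At 24 h 11 rose, where 19.6% of all genes rose, with a median of 0.32 at that time. At 4 h of H2O2 the AARS rise of 0.07 was lost under both other normalizations and without untreated replicate 1 or H2O2 4 h replicate 3, and the IARS rise of 0.12 without untreated replicate 2. The rises of the other 9 were called under every alternative.

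The other 8 cytosolic genes are DARS, FARSA, FARSB, HARS, KARS, QARS, RARS and VARS. Of these, 0 were higher and 3 lower at 4 h of H2O2, beside 26.2% and 19.7% of all genes. At 8 h 1 was higher and 4 lower, beside 18.8% and 18.6%, and at 24 h 1 was higher and 4 lower, beside 20.2% and 19.9%. The difference from the 12 listed ATF4 targets was not tested. At 24 h of NCS 3 were higher (DARS, HARS and QARS) and 4 lower (FARSA, FARSB, KARS and VARS), beside 19.6% and 18.4% of all genes. QARS for glutamine (-0.07, -0.12 and -0.07) and VARS for valine (-0.08, -0.20 and -0.17) were lower at all 3 times, the QARS call at 24 h being lost under quantile normalization. FARSA and FARSB encode the alpha and beta subunits of the phenylalanine enzyme. FARSA was lower at 4 and 24 h of H2O2 (-0.09 and -0.11), and 9 and 4 of 13 alternatives lost these calls. FARSB fell by 0.26 at 24 h of H2O2 and by 0.20 at 24 h of NCS. QARS went the other way at 24 h of NCS, where it was higher by 0.13, and it was lower in H2O2 than in NCS at all 3 times (-0.09, -0.17 and -0.20). KARS differed from untreated cells only at 24 h of NCS (-0.08). The arginine gene RARS passed only at 8 h of NCS (0.09), and 6 alternatives lost that call. The aspartate gene DARS was lower at 8 h of H2O2 (-0.07) and higher at 24 h of both treatments (0.09 and 0.07), and each of these calls was lost with library medians aligned.

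Of the 8 enzymes of the multisynthetase complex, 3 rose and 2 fell at 4 h of H2O2, beside 26.2% and 19.7% of all genes. At 8 h 3 rose and 2 fell, beside 18.8% and 18.6%. At 24 h 5 rose and 1 fell in H2O2, beside 20.2% and 19.9%, as in NCS, beside 19.6% and 18.4%. The 3 that rose at every time of H2O2 were EPRS, IARS and MARS, all listed as ATF4 targets. Of the scaffolds, AIMP1 was higher at 4 h of H2O2 (0.08, adjusted p = 0.0385), and EEF1E1 was lower at 8 h of H2O2 (-0.20, adjusted p = 0.0255) and at 24 h of NCS (-0.24, adjusted p = 0.00789). AIMP2 was lower at 24 h of NCS (-0.16, adjusted p = 0.00594). By catalytic fold, the 18 class I and the 17 class II enzymes had medians of 0.00 and -0.01 at 4 h of H2O2 and -0.04 and 0.09 at 24 h.

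The time steps were tested directly. All 12 listed ATF4 targets were higher at 8 h than at 4 h of H2O2, by 0.07 to 0.51, where 18% of all genes were higher and 27.7% lower. The LARS step was lost without H2O2 4 h replicate 1 or H2O2 8 h replicate 1. From 8 to 24 h of H2O2 they parted, as 5 rose further (AARS, IARS, LARS, MARS and WARS) and 4 came down (CARS by 0.22, TARS by 0.18, GARS by 0.16 and EPRS by 0.15), where 19.4% of all genes rose and 23.2% fell. The EPRS fall was lost under quantile normalization and the GARS fall without H2O2 8 h replicate 1. Over all 36 genes that step had 10 higher and 11 lower, and 13 and 8 under quantile normalization. After NCS, 3 of the 12 were higher at 8 h than at 4 h (AARS, SARS and WARS), where 6.16% of all genes were, and 0 were lower, where 7.5% of all genes were. The SARS call of that step was lost with any 1 of its 6 libraries left out and the WARS call without NCS 4 h replicate 2. All 12 were higher at 24 h than at 8 h of NCS by 0.06 to 0.47, where 14.9% of all genes were. For LARS the last step was lost under quantile normalization and in 5 of the fits with a library left out.

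Genes that work around the synthetases were counted for comparison. Their lists were also chosen with earlier results of these data known, so the counts are a description and not a test. Of 30 other ATF4 targets, 27 rose and 0 fell at 4 h of H2O2 with a median of 0.63. At 8 h 28 rose and 0 fell with a median of 0.97. At 24 h 28 rose and 2 fell with a median of 0.79. Of all genes, 26.2%, 18.8% and 20.2% rose at these times of H2O2, and 19.7%, 18.6% and 19.9% fell. After NCS, 3 rose and 10 fell at 4 h, and 9 rose and 2 fell at 8 h. At 24 h of NCS 24 rose and 2 fell, with a median of 0.26. Of all genes, 7.47%, 10.5% and 19.6% rose at these times of NCS, and 9.72%, 13.3% and 18.4% fell. ATF4 mRNA was higher by 0.92, 0.97 and 0.55 in H2O2. In NCS its differences were -0.18, -0.04 and 0.21, of which the 8 h value did not pass. ASNS, which makes asparagine, was higher by 0.63, 1.45 and 1.66 in H2O2 and by 0.78 at 24 h of NCS, its values of -0.09 and 0.14 at 4 and 8 h of NCS not passing. DDIT3, a transcription factor induced by ATF4, was higher by 1.45, 1.20 and 1.39 in H2O2 and by 0.83 and 0.88 at 8 and 24 h of NCS.

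8 genes of that list were over 1 at 4 h of H2O2, as were 0.655% of all genes. They were the transcription factors ATF3 (3.45), DDIT3 (1.45) and CEBPB (1.16), the stress-induced regulators SESN2 (1.87), DDIT4 (1.21) and TRIB3 (1.06), the glutathione-degrading enzyme CHAC1 (1.79) and the phosphatase subunit PPP1R15A (1.12). ATF3 and SESN2 also rose at 4 h of NCS, by 1.58 and 1.1, a time when none of the 12 synthetases of the ATF4 list rose. Of 12 partners of tRNA charging, 2 rose and 1 fell at 4 h of H2O2, where 26.2% of all genes rose and 19.7% fell. XPOT, the exporter of tRNA from the nucleus, was among the risers at 0.55, 0.74 and 0.67 and was lower by 0.14 at 4 h of NCS and higher by 0.26 at 24 h.

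In comparisons between the treatments at the same time, which do not use the untreated libraries, H2O2 stood above NCS in 11 cytosolic genes at 4 h and in 11 at 8 h, all from the ATF4 list. At 4 h, 26.3% of all genes were higher and 18% lower, and at 8 h 18.7% and 15.4%. 4 cytosolic genes were lower at 4 h and 5 at 8 h. The cytosolic medians were 0.15 and 0.33, and the mitochondrial ones -0.10 at both times. All 22 of the higher calls held under every alternative. CARS differed most, by 0.55 at 4 h and 0.93 at 8 h (adjusted p of 1.4e-07 and 8.81e-10), followed at 8 h by GARS at 0.73 (adjusted p = 9.77e-10), and these 2 genes passed 0.58 at 8 h, as did 0.711% of all genes.

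At 24 h the median difference between the treatments over the cytosolic genes was 0.09. 10 were higher in H2O2 and 2 lower, where 11% of all genes were higher and 10.9% lower. With library medians aligned, the share of called members that were higher was 63.2% in place of 76.5%. WARS differed most (0.41, adjusted p = 4e-07), ahead of MARS (0.35) and CARS (0.33), while GARS (0.11), EPRS (0.07) and TARS (0.06) no longer passed. The change of the difference from 4 h to 24 h was tested as an interaction, in which 16.6% of all genes were higher and 22.7% lower. It passed for GARS (-0.35, adjusted p = 1.45e-04), TARS (-0.31, adjusted p = 3.27e-05), CARS (-0.22, adjusted p = 0.0288) and EPRS (-0.16, adjusted p = 0.0143), for which the gap narrowed, and the calls of CARS and EPRS were lost under quantile normalization. It also passed downwards for QARS (-0.11), a call lost under quantile normalization too, and upwards for FARSA (0.26), KARS (0.13), LARS (0.13) and WARS (0.15), the last being lost with no mean-variance trend. That made 4 cytosolic genes higher and 5 lower with a median of 0.00. Under quantile normalization 8 were higher and 2 lower, with a median of 0.05. 8 cytosolic genes were higher in H2O2 at all 3 times: AARS, CARS, IARS, MARS, NARS, SARS, WARS and YARS. The share of all genes higher at all 3 times was not counted and cannot exceed the 11% of 24 h.

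**Figure D4:**
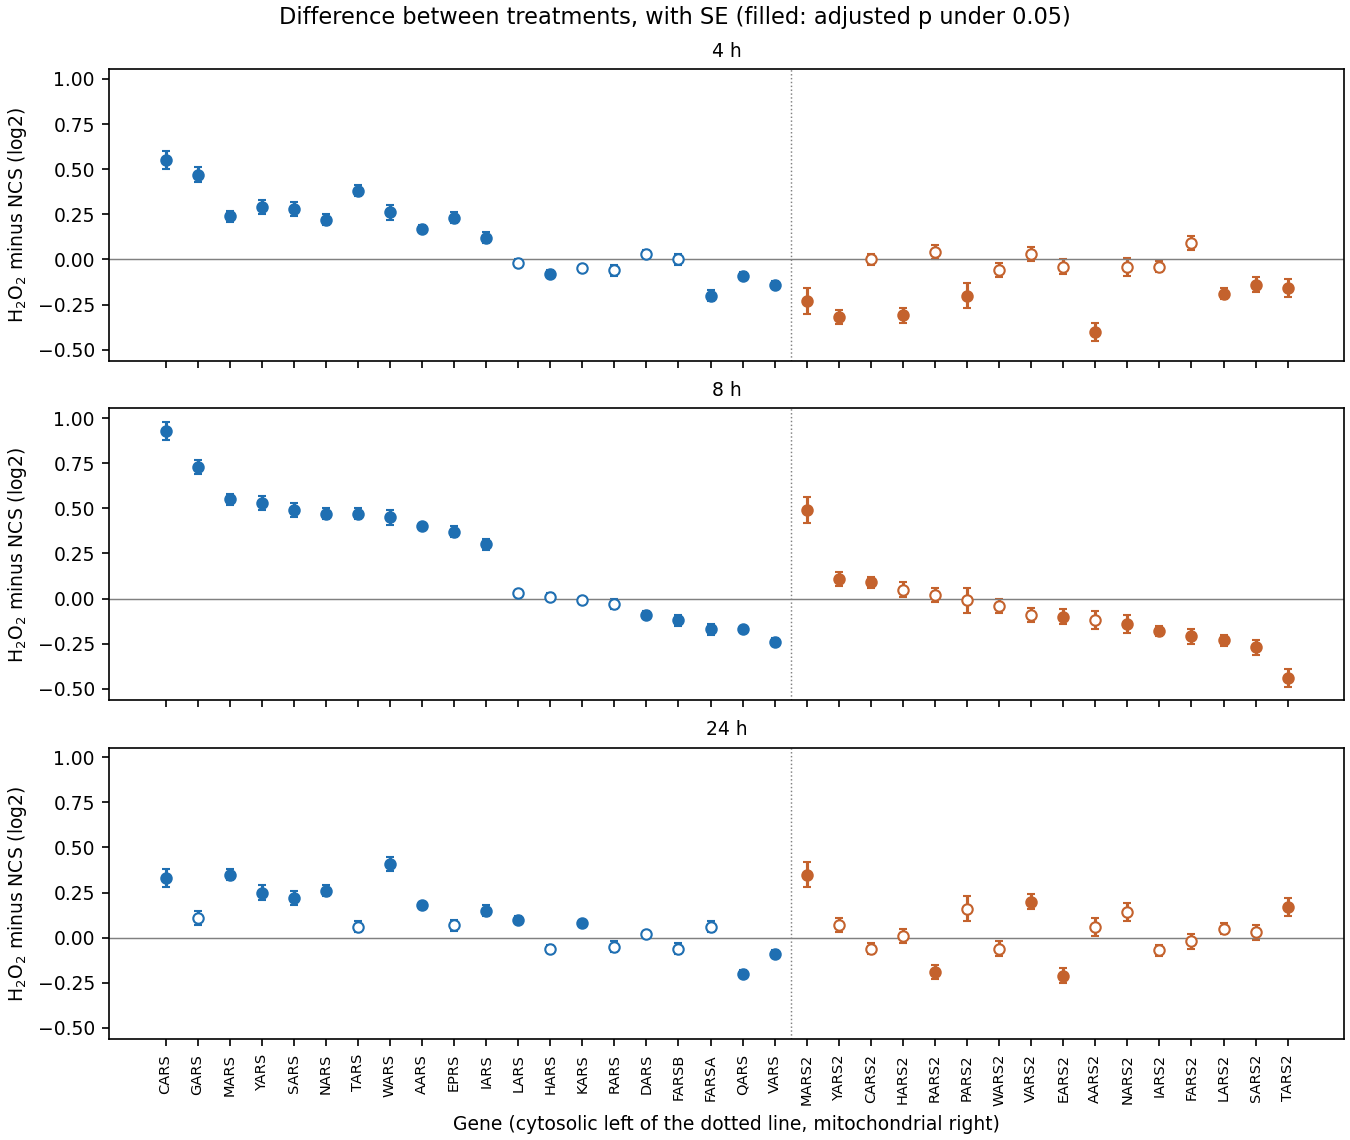
Log2 difference of H2O2 minus NCS for each gene at 4, 8 and 24 h, with its SE as bars and filled points where the adjusted p was under 0.05. The 11 cytosolic genes lie above 0 at 4 and 8 h with CARS up to 0.93, and among the mitochondrial genes MARS2 stands alone at 0.49 at 8 h.

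Of the mitochondrial genes, 8 fell at 4 h of H2O2, where 19.7% of all genes fell. The 8 were YARS2, AARS2, HARS2, LARS2, SARS2, TARS2, NARS2 and IARS2. Of these calls 5 held under every alternative, the others being NARS2, SARS2 and TARS2. Between the treatments, the change of the gap from 4 to 24 h passed upwards for 9 mitochondrial genes, among them AARS2 (0.45, adjusted p = 3.96e-05) and YARS2 (0.39, adjusted p = 1.3e-05). It passed downwards for EARS2 (-0.18) and RARS2 (-0.23). In that interaction 16.6% of all genes were higher and 22.7% lower. Of the 9, the calls of SARS2 and VARS2 were lost under quantile normalization. In H2O2 the 8 genes that fell followed different courses. YARS2, AARS2 and HARS2 fell at 4 h and were higher again at 8 h than at 4 h. IARS2, NARS2 and SARS2 were below untreated cells at all 3 times of H2O2, the IARS2 call at 24 h being lost under 5 of 13 alternatives.

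YARS2, the mitochondrial tyrosine enzyme, had untreated values of 9.06, 9.03 and 9.0. It was at 8.69, 8.74 and 8.81 at 4 h of H2O2, 9.14, 9.08 and 9.15 at 8 h, then 9.02, 8.99 and 8.99 by 24 h. The 4 h libraries lay below all others (-0.29, SE 0.04, adjusted p = 4.42e-06), and the step back from 4 to 8 h was 0.38 (adjusted p = 1.91e-07). After NCS the libraries were at 9.02, 9.04 and 9.12 at 4 h, 8.94, 9.02 and 9.09 at 8 h, then 8.92, 8.93 and 8.94 by 24 h, and its fall of 0.10 at 24 h (adjusted p = 0.0346) was lost under both other normalizations and in 5 of the fits with a library left out.

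AARS2 loads alanine in the mitochondrion. It moved from 9.68, 9.85 and 9.84 in untreated cells to 9.46, 9.60 and 9.52 at 4 h of H2O2, 9.79, 9.82 and 9.91 at 8 h, then 9.70, 9.78 and 9.70 by 24 h. The 4 h fall was 0.26 (adjusted p = 2.14e-04), and the step from 4 to 8 h was 0.32 (adjusted p = 3.26e-05). With NCS it was at 9.95, 9.95 and 9.88 at 4 h, 9.89, 10.00 and 10.01 at 8 h, then 9.61, 9.72 and 9.70 by 24 h. The 8 h rise of 0.18 was lost without untreated replicate 1 or NCS 8 h replicate 2 or 3 and when only those groups were fitted. The treatments stood apart at 4 h, H2O2 below NCS by 0.40 (adjusted p = 2.2e-06), the largest difference of a mitochondrial gene at that time.

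HARS and HARS2, the histidine enzymes of the cytosol and the mitochondrion, are neighbors on chromosome 5 that are transcribed away from each other. Their RefSeq start sites on GRCh38.p14, at 140691370 on the minus strand and 140691455 on the plus strand, are 85 bases apart. The 84 bases between them are shown because both genes start at this one stretch.
HARS to HARS2, chr5:140691371-140691454, plus strand: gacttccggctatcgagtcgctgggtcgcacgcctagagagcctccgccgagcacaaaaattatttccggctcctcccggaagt
HARS2 was at 9.94, 9.99 and 10.02 in untreated cells and at 9.74, 9.74 and 9.72 at 4 h of H2O2, a fall of 0.25 (adjusted p = 4.25e-05). HARS had 11.35, 11.43 and 11.46 untreated and 11.40, 11.42 and 11.42 at 4 h, a difference of -0.00 (adjusted p = 0.973). At 8 h both were above untreated cells, HARS2 by 0.18 at 10.20, 10.12 and 10.18 and HARS by 0.11 at 11.52, 11.49 and 11.56. The step from 4 to 8 h was 0.43 for HARS2 (adjusted p = 7.25e-08) and 0.11 for HARS (adjusted p = 0.00104). The difference between the 2 genes was not tested, and whether reads were counted by strand is not given in the sources used here. HARS was the only member above untreated cells at all 3 times of NCS (0.07, 0.10 and 0.12). Its 4 h call was lost in 8 of 13 alternatives and its 8 h call in 2, aligned library medians being among them both times.

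MARS2, the mitochondrial methionine enzyme, had the largest rise of its class. Untreated libraries were at 7.34, 7.27 and 7.46 and those of 4 h of H2O2 at 7.11, 7.33 and 7.26, which overlapped. At 8 h of H2O2 they reached 7.99, 7.79 and 7.96, above every other library, a difference of 0.56 (SE 0.07, adjusted p = 8.58e-06). At 24 h they had come back to 7.50, 7.47 and 7.55, and the step down from 8 h was -0.41 (adjusted p = 2.05e-04). NCS gave 7.47, 7.47 and 7.47 at 4 h, 7.38, 7.28 and 7.61 at 8 h, then 7.10, 7.19 and 7.17 by 24 h. Its fall of 0.20 at 24 h of NCS (adjusted p = 0.0396) was lost under quantile normalization, with no mean-variance trend and in 5 of the fits with a library left out. The gap of H2O2 over NCS was 0.49 after 8 h (adjusted p = 4.89e-05). After 24 h it was 0.35 (adjusted p = 0.00187). At 4 h H2O2 was below NCS by 0.23 (adjusted p = 0.0161), a call lost without H2O2 4 h replicate 1. The change of that gap from 4 to 24 h was 0.59, over the 0.58 that 1.06% of all genes passed.

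TARS2, for threonine, fell first and rose later in H2O2. Its values were 9.16, 9.21 and 9.14 untreated, 9.01, 8.98 and 9.07 at 4 h of H2O2, 8.88, 9.07 and 8.84 at 8 h, then 9.30, 9.34 and 9.39 by 24 h. The differences were -0.15, -0.24 and 0.17 (adjusted p of 0.0274, 0.00135 and 0.0122), and the step from 8 to 24 h was 0.41 (adjusted p = 3.73e-06). In NCS it was at 9.27, 9.10 and 9.17 at 4 h, 9.38, 9.33 and 9.40 at 8 h, then 9.16, 9.12 and 9.25 by 24 h, higher than untreated cells at 8 h alone (0.20, adjusted p = 0.00826). At 8 h H2O2 was below NCS by 0.44 (adjusted p = 3.6e-06). The H2O2 calls at 4 and 24 h were less firm, the first lost under quantile normalization and without untreated replicate 1 or 2 or H2O2 4 h replicate 1 or 2, the second without H2O2 24 h replicate 3.

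EARS2 attaches glutamate to mitochondrial tRNAs, including the tRNA for glutamine, where the glutamate is then converted. It was at 9.64, 9.62 and 9.68 untreated, 9.59, 9.68 and 9.65 at 4 h of H2O2, 9.68, 9.69 and 9.76 at 8 h, then 9.41, 9.35 and 9.46 by 24 h. The 24 h group was below all others (-0.24, adjusted p = 1.63e-05), the largest fall of a mitochondrial gene at that time. NCS libraries were at 9.70, 9.65 and 9.68 at 4 h, 9.77, 9.81 and 9.87 at 8 h, then 9.60, 9.66 and 9.61 by 24 h, with a rise of 0.17 at 8 h (adjusted p = 0.00146).

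NARS2, the asparagine enzyme, was low in both treatments. It went from 8.41, 8.37 and 8.42 to 8.16, 8.26 and 8.35 at 4 h of H2O2, 8.16, 8.21 and 8.05 at 8 h, then 8.20, 8.23 and 8.25 by 24 h, and all 3 times passed (-0.14, -0.26 and -0.17), the first being lost under quantile normalization and without untreated replicate 1 or 3 or H2O2 4 h replicate 1 or 2. With NCS it was at 8.37, 8.24 and 8.27 at 4 h, 8.28, 8.29 and 8.25 at 8 h, then 8.03, 8.07 and 8.17 by 24 h. Its fall of 0.31 at 24 h of NCS (adjusted p = 5.47e-05) was the largest of any member in that treatment.

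**Figure D5:**
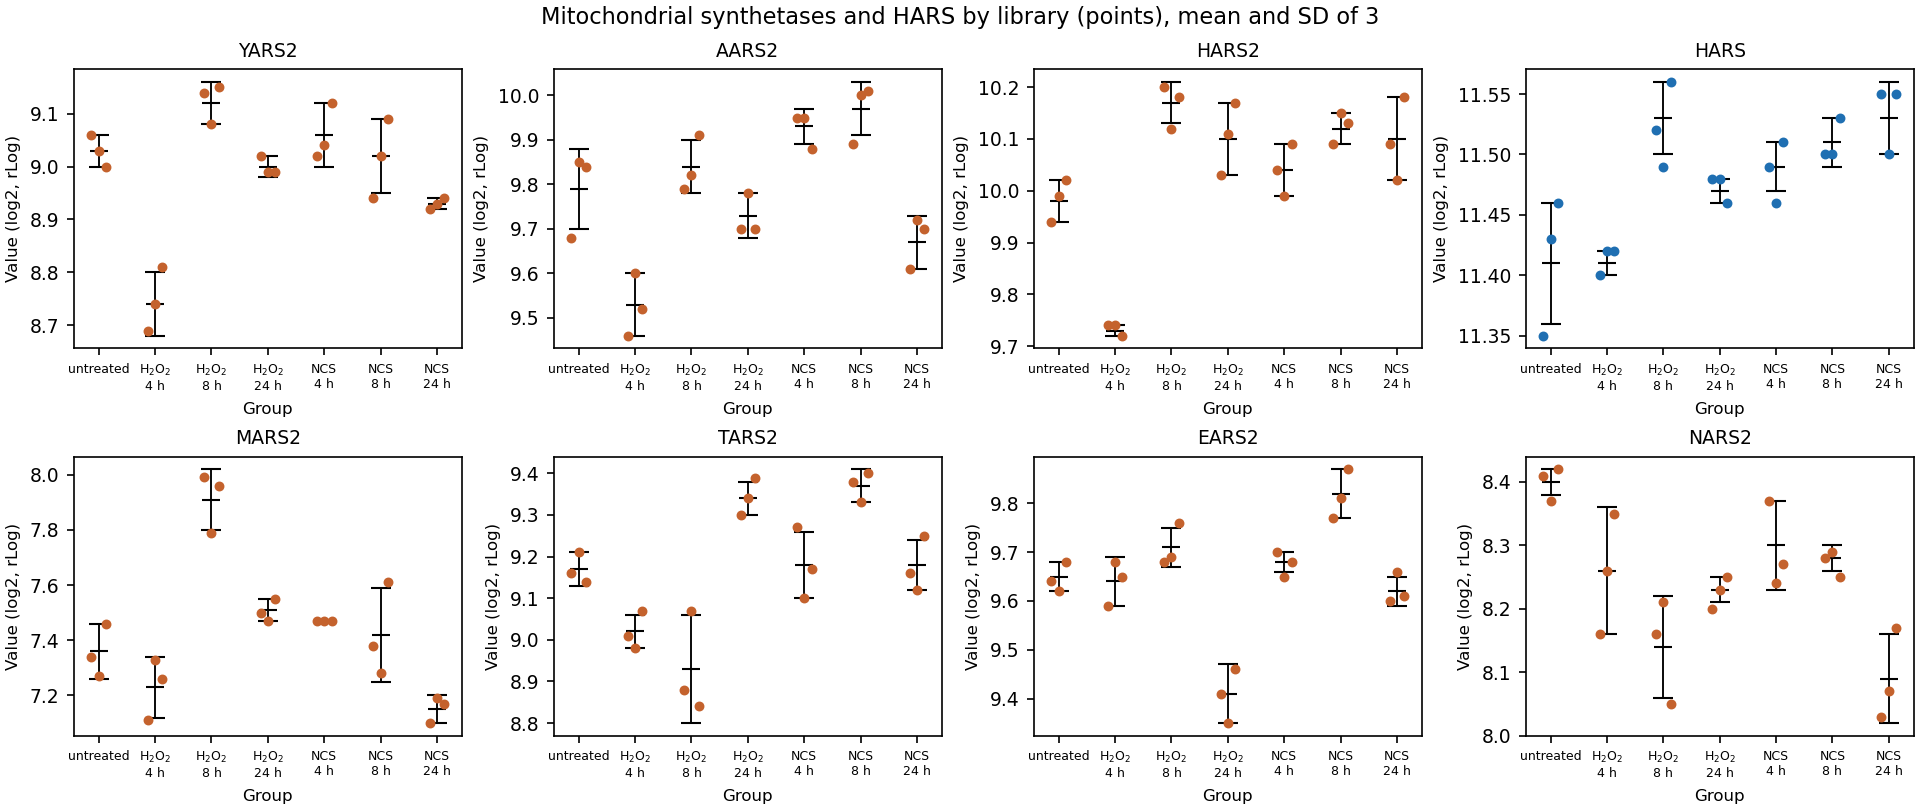
rLog values (log2) of 7 mitochondrial genes and of the cytosolic gene HARS in each of 21 libraries (points) with the mean and SD of the 3 libraries of a group. YARS2, AARS2 and HARS2 are low at 4 h of H2O2, where HARS overlaps untreated cells, and MARS2 is high at 8 h of H2O2 at 7.79 to 7.99.

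The remaining mitochondrial genes are given by their differences. IARS2 for isoleucine was lower by 0.13, 0.31 and 0.09 in H2O2 and by 0.13 at 8 h of NCS, and SARS2 for serine by 0.15, 0.29 and 0.22 in H2O2 and by 0.26 at 24 h of NCS. LARS2 (-0.19 and -0.13) was lower at 4 and 8 h of H2O2. FARS2 (-0.19) and VARS2 (-0.13) were lower at 8 h of H2O2, the VARS2 call being lost in 5 of 13 alternatives, quantile normalization among them, and RARS2 and WARS2 (-0.12 each) at 24 h, where both calls were lost under quantile normalization. CARS2 and PARS2 passed in no comparison with untreated cells, their differences lying between -0.07 and 0.03 for CARS2 and between -0.01 and 0.19 for PARS2. At 24 h of NCS the 6 lower genes were LARS2, MARS2, NARS2, SARS2, VARS2 and YARS2, where 18.4% of all genes fell. NARS2, SARS2 and VARS2 were the ones called under every alternative. From 8 to 24 h of NCS, 9 of the 16 fell and 2 rose, whereas 13 of the 20 cytosolic genes rose and 4 fell, where 14.9% of all genes rose and 15% fell.

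The proteins of the mitochondrial ribosome, which uses the charged tRNAs of this class, gave counts in both directions. Of 79 measured, 11 rose and 10 fell at 4 h of H2O2, where 26.2% of all genes rose and 19.7% fell. At 8 h 11 rose and 10 fell, where 18.8% and 18.6% of all genes did. At 24 h 10 rose and 27 fell, where 20.2% and 19.9% did. The medians were 0.02, -0.00 and -0.03. At 24 h of NCS 10 rose and 26 fell, where 19.6% and 18.4% of all genes did. Proliferation markers moved with time in both treatments. All 8 of them were lower at 24 h, with a median of -1.67 in H2O2 and -1.85 in NCS, where 19.9% and 18.4% of all genes fell. At 4 h 5 of them were lower and 1 was higher in each treatment, with medians of -0.20 and -0.59. Of all genes, 19.7% fell and 26.2% rose at 4 h of H2O2, and 9.72% fell and 7.47% rose at 4 h of NCS. The part of proliferation in the changes of the synthetase genes was not tested.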

How the data were processed

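RNA-seq of 21 libraries (7 groups, 3 biological replicates each) was analysed. Libraries were made with a stranded mRNA kit and sequenced as paired-end reads. The submitters' processing notes name HISAT2, HTSeq, DESeq2 and build hg19. Versions and the annotation are not given in the sources used here. The deposited table holds log2 values that the authors obtained by DESeq2's rLog transformation of gene counts. The counts were not used here, so depth is unknown and no counting interval is given. Every value column was matched to a library by its name, and 0 columns were left over.

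The 36 members were found by symbol. Genes at 0 in every library (3674 of 23368) were left out. limma (version 3.58.1, R 4.3.3) was fitted to the values of all 7 groups with a mean-variance trend, and p-values were adjusted by Benjamini-Hochberg over 19694 genes in each of 9 comparisons, 6 time steps and 1 interaction. The study's methods call genes at log2 differences over 1. Here all differences with an adjusted p under 0.05 are counted. In a simulation, each of the 19694 genes was set at its mean over all libraries with normal noise of its SD within groups. Only 200 genes with a mean of at least 5 were then shifted at 4 h of H2O2. Against untreated cells, 86 of 100 genes shifted by 0.3 and 100 of 100 shifted by 0.6 were recovered, and 14 of the 200 calls (7%) were false. In the data 26.2% of all genes rose and 19.7% fell there, so the simulated setting differs, and recovery of genes with lower means was not simulated.

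Values are given in every library for members over 0.58 in any of the 9 comparisons and for the mitochondrial member with the largest difference among those that passed in each. LARS, HARS, HARS2 and XPOT were described after their values were seen. The members and gene lists were chosen with earlier results of these data known. Alternatives were other normalizations, filters and fits, the replicate number as a block, GARS and KARS left out, and each library left out in turn. None of the 6 alternatives for interaction calls left a library out. The alternatives for the time steps were added after seeing the data. Motifs were searched in RefSeq promoters, in Python 3.11.15 with pandas 2.3.3, and no annotation of build hg19 was used. Coordinates are those of GRCh38.p14 and were not converted.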

Additional observations from a re-analysis of the deposited data

Results flagged for a closer look

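The gap between H2O2 and NCS changed with time for MARS2, the mitochondrial methionine enzyme. From 4 h to 24 h the log2 difference of H2O2 minus NCS changed by 0.59 (SE 0.11, adjusted p = 2.29e-04, limma interaction with Benjamini-Hochberg adjustment over all genes), from -0.23 to 0.35. It was the only member whose interaction exceeded 0.58, though only just, and 1.06% of all genes were higher by more than that. No fit with a library left out was used for the interaction. The 4 h call of -0.23 was lost without H2O2 4 h replicate 1. MARS2 stood out by a test of the difference between the 2 times.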

How the results depend on the processing

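Of 284 recomputed counts and class differences, 261 stayed within 1.5 times the reported count or 1 SD of the reported difference, and 23 moved. With a mean value of at least 5 required, fewer genes were tested, and the members changed at 4 h of NCS rose from 4 to 7 and those between 4 and 8 h of NCS from 5 to 9 (8 under quantile normalization). With each library left out these counts ranged from 1 to 4 and from 1 to 4, and at 8 h of NCS from 7 to 11. Quantile normalization moved the median cytosolic minus the median mitochondrial difference from 0.22 to 0.16 at 4 h of H2O2, from 0.33 to 0.36 at 24 h, from -0.01 to 0.02 at 8 h of NCS and from 0.25 to 0.23 at 24 h. Between the treatments it moved from 0.25 to 0.18 at 4 h and from 0.05 to 0.10 at 24 h. With each library left out it ranged from 0.18 to 0.23 at 4 h of H2O2, from 0.34 to 0.39 at 8 h and from -0.02 to 0.02 at 8 h of NCS. The cause of these moves was not tested.

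Of 4019 recomputed values of the 330 called differences of single members, 3725 kept their direction and their side of the threshold, 293 fell short of it and 1 lost its direction. That one was VARS at 24 h against 4 h of H2O2, at 0.00 under quantile normalization in place of -0.09. Replicate numbers were not taken as pairs, since correlations of the deviations of libraries with the same number ranged from -0.149 to 0.213 and not all were over 0.1. They averaged 0.0274, against -0.0137 for different numbers, and 13 of 21 libraries correlated best with their own number, a hint of pairing from the data and not from the design. With the replicate number as a block, 23, 25 and 25 members changed at 4, 8 and 24 h of H2O2, 5, 10 and 26 at those times of NCS, 24, 25 and 17 between treatments and 20 in the interaction, none of which differed from the unblocked count by more than 1.5 times. Depth is unknown, and whether small differences were harder to detect in low genes was not tested.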
